A study of Oryzias latipes with 4 samples.

Results

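Isolated long single-exon models are stretches of at least 900 bases that the deposited annotation treats as 1 uninterrupted exon and that stand alone on their chromosome. A model was taken where its length equalled its locus end minus its start, where no other model overlapped it or lay within 1000 bases, and where the mean of the 2 RNA-seq FPKM was at least 1. The rule found 73 of 93896 models, or 73 of the 152 that met it before the RNA limit. They were spread over all 24 chromosomes of the table. FPKM, the unit of every level given here, is the number of mapped fragments scaled to feature length and library size. The members were thus chosen by their measured RNA-seq values, and their RNA levels are a description.

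The libraries came from female medaka (Oryzias latipes), bought from a dealer and held in the condition labelled SD, then moved to the one labelled LD and sampled 16 h later. The dissected piece joined the ventral telencephalon to the hypothalamus and pituitary. Both groups, LD_RNAseq and LD_Riboseq, had 2 libraries and shared that one condition, so the design compares total RNA with ribosome footprints. No label states that the 2 libraries of an assay are from different fish, so each p-value reflects library-to-library spread alone, which could be technical.

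Ribosomes protect a short piece of the mRNA they sit on, and Ribo-seq reads those pieces, so a transcript that is being translated carries footprints and one that is not carries few. Protein-coding sequence is read in codons of 3 bases, so a complete coding stretch has a length that is a multiple of 3, while untranslated ends and noncoding RNAs are under no such constraint. Most vertebrate genes are split by introns; the SOX and forkhead transcription factors of the developing and adult brain hold some of the best known exceptions.

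The depth of the libraries is unknown, since FPKM hold no read counts, and no counting error can be given. Between 60162 and 88697 models were above 0 in a library. A single model took 14.8% of the length-weighted FPKM in Ribo-seq replicate 1 and 8.34% in replicate 2, against 1.63% and 1.49% for the top model in RNA-seq. Among markers of the dissected tissue were snap25, a synaptic protein gene (351 and 355 FPKM in RNA-seq), oxt, a hypothalamic peptide precursor (66.2 and 71.0), and pomc, a pituitary hormone precursor (247 and 231), whereas prl, the pituitary prolactin gene, stood at 0.367 and 0.114. Transcripts of muscle, acta1 (5.82 and 3.87) and mylpf (0.912 and 0.988), and of endothelium, cldn5 (16.2 and 15.04) and kdr (0.487 and 0.278), were measured as well; their part in the results was not tested.

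The 73 models fell into a larger set with footprints and a smaller one with almost none. Mean RNA-seq levels ran from 1.09 to 199 FPKM with a median of 3.92, and mean Ribo-seq levels from 0.0183 to 483 with a median of 2.57. Between 0.330 and 0.988 FPKM in Ribo-seq there was no model: 20 lay at or below the first value and 53 at or above the second, a split seen in these values and given with no test. The 20 had RNA levels of 1.38 to 6.52 FPKM (median 3.42), within the range of the other 53 (1.09 to 199, median 5.39). The same 20 were the members below 1 FPKM in both Ribo-seq libraries. So were 24702 of all 58645 models that averaged 1 FPKM or more in RNA-seq. Among these it held for 85 of 228 long single-exon models that were not isolated. It held for 851 of 2650 isolated spliced models of at least 900 bases. None of the 73 was listed at 0 in both Ribo-seq libraries, and 1 was listed at 0 in each of them.

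**Figure D1:**
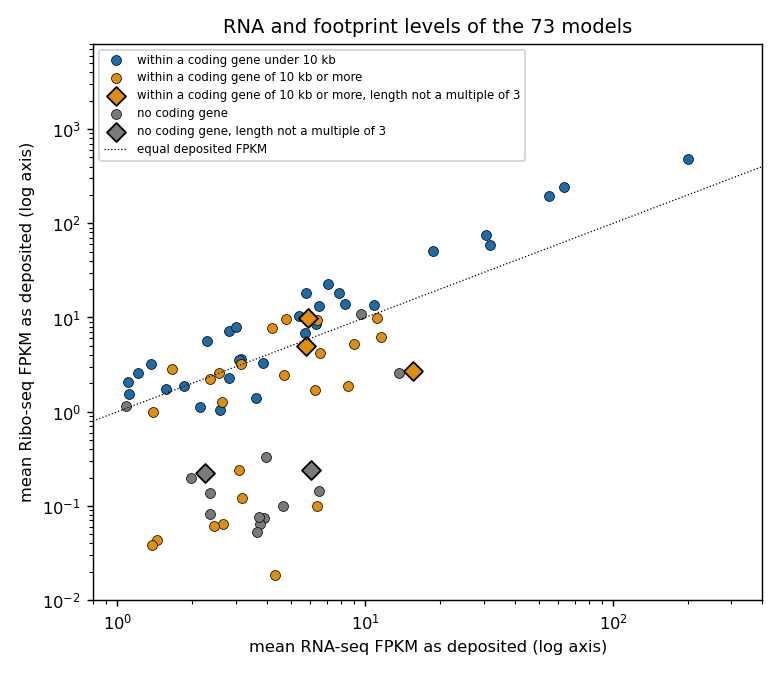
Mean RNA-seq level (x axis) against mean Ribo-seq level (y axis) of the 73 models, in FPKM as deposited on log axes; colour gives the RefSeq gene at the position and diamonds mark lengths that are not multiples of 3. A cloud of 20 models sits at or below 0.330 FPKM in Ribo-seq, apart from the 53 models at or above 0.988.

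Footprints were set against RNA model by model, which asks how ribosome occupancy follows RNA level. The log2 of scaled FPKM plus 1 was fitted with limma over all 58645 models that averaged 1 FPKM or more in RNA-seq, and a model was called at an adjusted p below 0.05. Differences are Ribo-seq minus RNA-seq on that log2 scale, where the added 1 shrinks differences between low values. Of the 73 models, 26 were called higher in Ribo-seq and 24 lower, while 20.2% of all tested models were called higher and 39.5% lower. As the RNA limit also chose the members, nothing is read from these counts alone. The members' median difference was 0.43 and ran from -2.33 to 2.67, and that of all tested models was -0.55. Of the members, 35.6% were called higher and 32.9% lower, and other tested models of at least 900 bases lay nearer to these shares. The 228 long single-exon models that were not isolated had a median of 0.23, with 38.2% higher and 35.1% lower. The 2650 isolated spliced models of at least 900 bases had a median of 0.05, with 32.0% and 32.4%. The 833 isolated single-exon models shorter than 900 bases lay farther away, with a median of -1.34, 5.64% higher and 61.3% lower. With FPKM left unscaled, 8 members were called higher and 26 lower, against 4.14% and 48.5% of all tested models; the members' median became -0.20 and that of all tested models -0.99. Under both scalings, 49 of the 73 lay above the median of all tested models. The count of higher members rests on both RNA-seq libraries: it fell without either of them and rose without either Ribo-seq library. Each of these fits left a single library of the assay concerned. The members' median difference was 0.36 and 0.47 without RNA-seq replicate 1 and 2. It was 0.57 and 0.42 without Ribo-seq replicate 1 and 2.

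**Figure D2:**
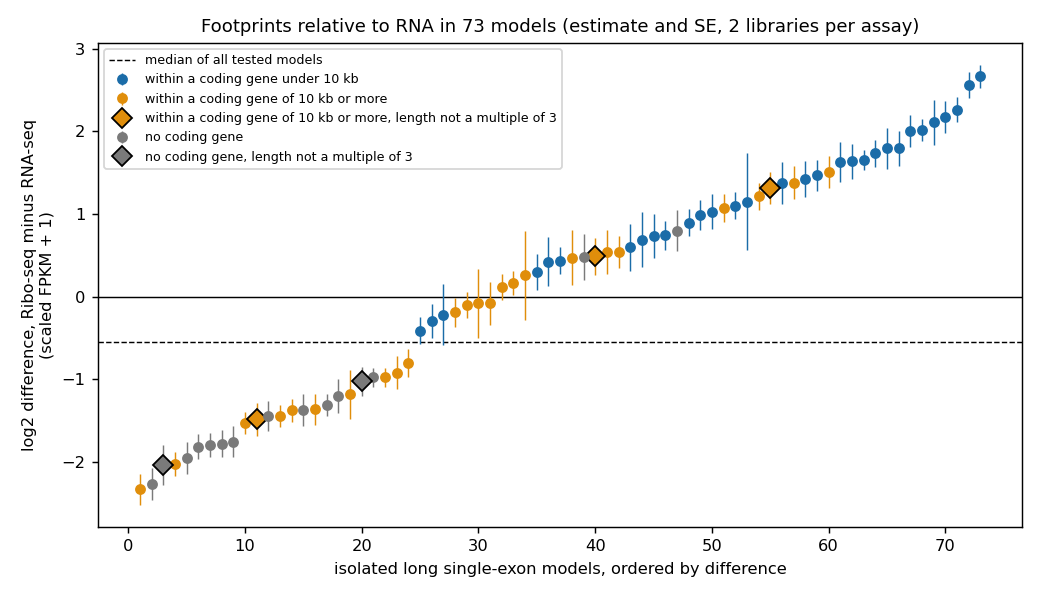
Log2 difference between Ribo-seq and RNA-seq (y axis; scaled FPKM plus 1, limma estimate with SE bars) of the 73 models in ascending order (x axis). Models with no coding gene lie mostly at the low end, down to -2.27, and models within a coding gene shorter than 10 kb fill the high end, up to 2.67.

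Nearly every length was a multiple of 3, in 68 of the 73 models (93.2%). The share was 97.9% over all 6724 single-exon models of the table and 78.8% over all models, and among spliced models of at least 900 bases with the same isolation and RNA limit it was 48.9%. A length of this kind does not show that a model is translated: of the 1125 tested single-exon models outside RefSeq coding genes, 97.7% had multiple-of-3 lengths and 66.8% were called lower in Ribo-seq. The 73 ran from 900 to 7026 bases with a median of 1401.

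The 68 models of a multiple-of-3 length had a median of 3.77 and 3.91 FPKM in the RNA-seq replicates and 2.08 and 3.12 in the Ribo-seq replicates. Of these, 25 were called higher in Ribo-seq and 21 lower. The 5 other models had medians of 5.86 and 5.81 FPKM in RNA-seq and 2.33 and 3.03 in Ribo-seq, with 1 called higher and 3 lower. Median differences were 0.45 and -1.03. This gap of 1.48 rests on few models and was not stable. Among lengths of at least 1500 bases the medians were 0.36 and 0.49, in the opposite order. Spliced models of at least 900 bases that met the isolation and RNA limits also had the opposite order. Their median was -0.19 in 1296 multiple-of-3 models, with 363 called higher and 505 lower (limma). It was 0.30 in 1354 models of other lengths, with 484 higher and 353 lower. Members are not replicates, and no test was made between the classes.

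The 5 models of other lengths had little in common in their footprints. The model of 1000 bases on chromosome 5 (29831154 to 29832153) had the most RNA of the 5, at 14.0 and 17.2 FPKM, and 2.33 and 3.03 in Ribo-seq, a difference of -1.49 ± 0.20 (SE; limma, adjusted p = 0.0075). The model of 977 bases on chromosome 4 (20045415 to 20046391) had 5.86 and 6.22 FPKM in RNA-seq and 0.372 and 0.115 in Ribo-seq, a difference of -2.03 ± 0.24 (adjusted p = 0.0062). The model of 1507 bases on chromosome 1 (26129746 to 26131252) had 2.63 and 1.90 FPKM in RNA-seq and 0.277 and 0.173 in Ribo-seq, a difference of -1.03 ± 0.18 (adjusted p = 0.014). In these 3 models both Ribo-seq libraries lay far below both RNA-seq libraries. The rule for naming models by their difference required no overlap of the 1000- and 977-base models. On scaled values both Ribo-seq libraries lay below both RNA-seq libraries in 30530 of all 58645 tested models.

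The remaining 2 of that class were not called lower. The model of 3490 bases on chromosome 21 (17035538 to 17039027), of which 92.9% lies within LOC101164106, had 6.21 and 5.52 FPKM in RNA-seq and 6.93 and 12.9 in Ribo-seq, a difference of 1.31 ± 0.20 (limma, adjusted p = 0.0096). The model of 2308 bases on chromosome 14 (27719269 to 27721576), within the span of tmem132e, had 5.76 and 5.81 FPKM in RNA-seq and 4.95 and 4.90 in Ribo-seq; its difference of 0.49 did not pass the test (adjusted p = 0.14) and turned to -0.20 with unscaled FPKM. Without either RNA-seq library, the calls of the 977-, 1507- and 3490-base models were lost, and that of the 1000-base model was lost without RNA-seq replicate 2 alone. The 3490-base model also lost its call with unscaled FPKM (difference 0.62, adjusted p = 0.23).

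**Figure D3:**
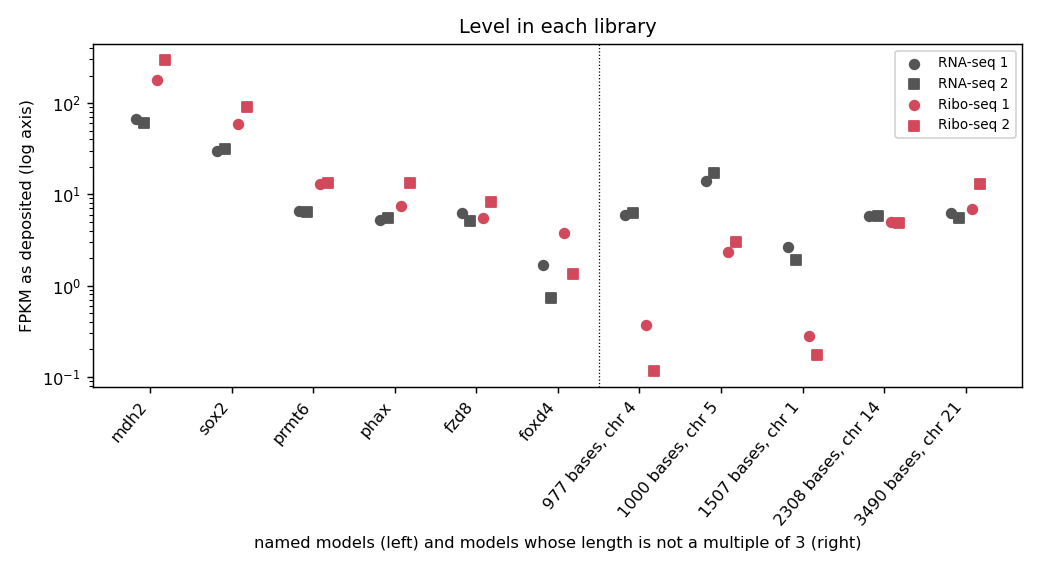
FPKM as deposited in each of the 4 libraries (log y axis) for 6 members that carry a RefSeq symbol (left of the dotted line) and the 5 members whose length is not a multiple of 3 (right). In mdh2, sox2, prmt6 and phax every Ribo-seq value lies above every RNA-seq value, while the 977-base model drops from 5.86 and 6.22 in RNA-seq to 0.372 and 0.115 in Ribo-seq.

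Position relative to RefSeq genes, which the rule did not use, also separated models by their footprints. The genes were those of assembly ASM223467v1, and the grouping was made after the values were seen, so it carries no test. Of the 73 models, 31 overlapped a protein-coding gene whose span is under 10000 bases, 27 overlapped only longer coding genes, and 15 overlapped none. Within the short genes, 21 of 31 models were called higher and 0 lower (limma, 21 and 0 at an unadjusted p below 0.05), with a median difference of 1.38. Within the long genes, 5 of 27 were higher and 11 lower, with a median of -0.08. Outside coding genes, 0 of 15 were higher and 13 lower (1 and 13 at an unadjusted p below 0.05), with a median of -1.44. Without RNA-seq replicate 1 the counts were 7 and 0, 0 and 8, and 0 and 8 in that order; without RNA-seq replicate 2 they were 6 and 0, 0 and 5, and 0 and 8. With unscaled FPKM they were 8 and 2, 0 and 11, and 0 and 13.

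The same order was present in other models, and nothing in it is particular to the isolated single-exon ones. Over all tested models, 43.7% of those in short coding genes were called higher and 15.7% lower, against 1.02% and 75.6% of those outside coding genes. In long coding genes the shares were 18.4% and 36.3%, near the members' 18.5% and 40.7%. Spliced models of at least 900 bases that met the isolation and RNA limits had 51.2% higher and 13.7% lower in short genes, and 2.53% and 86.9% outside genes. The isolated single-exon models shorter than 900 bases had 51.5% and 18.2% in short genes, but 333 of 833 lay outside coding genes, against 15 of 73 here. The length classes were unevenly placed as well: all 31 models in short genes had multiple-of-3 lengths. Outside coding genes, 11 of 13 multiple-of-3 models and 2 of 2 others were called lower; in long genes it was 10 of 24 and 1 of 3.

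**Figure D4:**
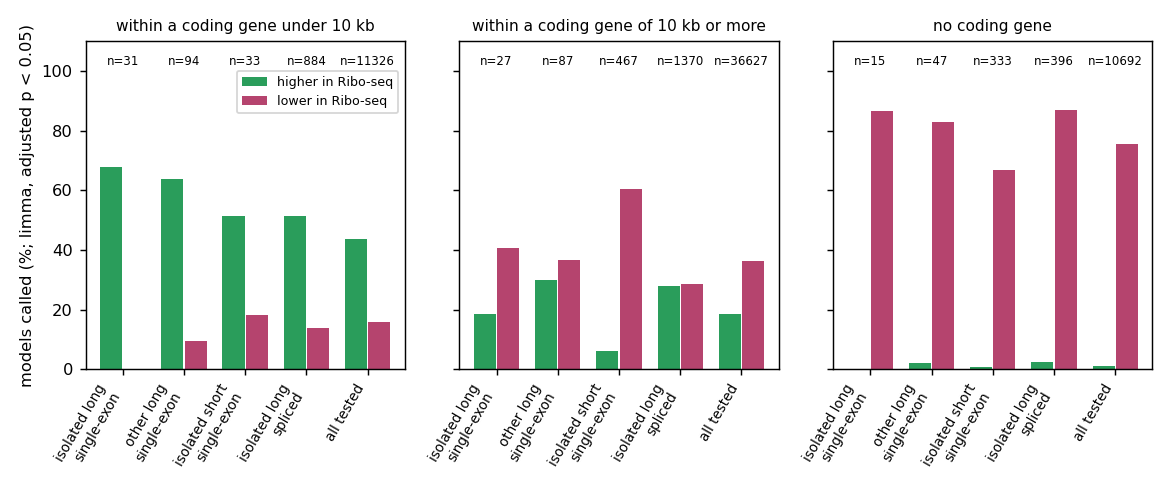
Share of models called higher (green) or lower (red) in Ribo-seq (y axis, %; limma, adjusted p below 0.05) by RefSeq position (panels) and kind of model (x axis), with the number of models above each pair. The isolated long single-exon models show 67.7% higher and 0% lower in short coding genes and 0% and 86.7% outside coding genes, and the other kinds of model follow the same order.

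Several members are genes of transcription factors. Sequence from these loci was not used here. The sox2 model (960 bases, chromosome 4, 18601531 to 18602490), for a factor of neural stem and progenitor cells, covers 99.1% of its RefSeq gene and also overlaps a noncoding RNA gene, LOC101162358, whose reads cannot be told apart without strand. It had 30.2 and 31.1 FPKM in RNA-seq and 58.7 and 91.6 in Ribo-seq, a difference of 2.02 ± 0.13 (SE; limma, adjusted p = 0.0045). Both Ribo-seq libraries lay above both RNA-seq libraries, and the call was kept with unscaled FPKM (1.23, limma, adjusted p = 0.045). The foxd4 model (1029 bases, chromosome 9, 9160190 to 9161218) has the span of its gene and was scarce, at 1.68 and 0.737 FPKM in RNA-seq and 3.79 and 1.36 in Ribo-seq. Its assays overlapped as deposited but not after scaling, and its difference of 1.15 fell short of the threshold (limma, adjusted p = 0.17). Leaving out Ribo-seq replicate 2, its lower Ribo-seq library, gave a difference of 2.05. With unscaled FPKM the difference was 0.64 (limma, adjusted p = 0.28).

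Lists of related transcription factors were compared in the same fit. Of 5 tested genes in a list of SOX and POU factors, all 5 were called higher (limma; 1 with unscaled FPKM), and besides sox2 the list held sox1, at 13.5 and 12.8 FPKM in RNA-seq and 19.1 and 32.5 in Ribo-seq, and sox4, at 19.5 and 16.4 and then 25.0 and 40.04; another model overlaps each of these single-exon models. Of 53 tested forkhead and zinc finger factors, 20 were higher and 6 lower (1 and 9 with unscaled FPKM). The list medians were 1.56 and 0.44, that of all 5719 tested models with a symbol was 0.72, and of the latter 2916 were higher and 437 lower (493 and 762 with unscaled FPKM).

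Enzymes, an RNA export adaptor and a receptor followed among the members with gene names. The model at mdh2 (1014 bases, chromosome 16, 14049142 to 14050155), named for mitochondrial malate dehydrogenase, had the largest difference of the 73. It had 66.2 and 60.1 FPKM in RNA-seq and 181 and 299 in Ribo-seq, a difference of 2.67 ± 0.14 (SE; limma, adjusted p = 0.0045; 1.87 and adjusted p = 0.016 with unscaled FPKM). The model within dolk (1572 bases, chromosome 12, 8132103 to 8133674), the kinase that makes the dolichol phosphate used in protein glycosylation, had 6.14 and 5.34 FPKM in RNA-seq and 12.9 and 23.8 in Ribo-seq, a difference of 2.18. prmt6, a protein arginine methyltransferase gene, had 6.62 and 6.40 FPKM in RNA-seq and 12.9 and 13.5 in Ribo-seq, a difference of 1.64. All 3 stood higher in both Ribo-seq libraries than in either RNA-seq library, which the rule for naming models by their difference required of mdh2 and dolk.

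phax, the adaptor for nuclear export of small nuclear RNAs, had 5.27 and 5.52 FPKM in RNA-seq and 7.39 and 13.2 in Ribo-seq, a difference of 1.47 that was no longer called with unscaled FPKM (0.77, limma, adjusted p = 0.14). fzd8, a Wnt receptor gene, had 6.30 and 5.16 FPKM in RNA-seq and 5.45 and 8.29 in Ribo-seq; its assays overlap as deposited, and its difference was 0.89 (limma, adjusted p = 0.015) after scaling and 0.21 (adjusted p = 0.61) without. Without either RNA-seq library the calls of dolk, prmt6, phax and fzd8 were lost with their direction kept, and those of mdh2 and sox2 were kept.

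Several of the most abundant members carry only a locus number. The model of 903 bases within LOC101163417 (chromosome 10, 5574410 to 5575312) was the highest in each library, at 202 and 197 FPKM in RNA-seq and 333 and 634 in Ribo-seq, a difference of 2.0 ± 0.20 (SE; limma, adjusted p = 0.0048). The model of 1173 bases within LOC101169548 (chromosome 12, 14322955 to 14324127) had 54.0 and 56.6 FPKM in RNA-seq and 146 and 247 in Ribo-seq, a difference of 2.56. Those within LOC101161355 (1491 bases, chromosome 22) and LOC110016377 (1995 bases, chromosome 14) had differences of 2.26 and 2.11. In all 4 both Ribo-seq libraries exceeded both RNA-seq libraries, which the rule for naming models by their difference required of all but the first. On scaled values this held for 17978 of all 58645 tested models. The models in LOC101163417 and LOC110016377 lost their calls without either RNA-seq library and with unscaled FPKM (1.20 and 1.34, adjusted p = 0.069 and 0.062).

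Models in short genes with symbols also included tob2, an inhibitor of cell proliferation, and zbtb1, a BTB zinc finger factor. The tob2 model (1206 bases) had 6.94 and 8.72 FPKM in RNA-seq and 12.3 and 24.4 in Ribo-seq, a difference of 1.79 (limma, adjusted p = 0.0083). The zbtb1 model (2055 bases) had 6.45 and 6.14 FPKM in RNA-seq and 7.84 and 9.40 in Ribo-seq, a difference of 1.10 (adjusted p = 0.0097). Both calls were lost with unscaled FPKM and without either RNA-seq library. ankrd34c, whose model has 1590 bases, had 2.45 and 3.89 FPKM in RNA-seq and 2.16 and 5.12 in Ribo-seq. Its assays overlapped as deposited but not after scaling, and its difference of 0.69 did not pass (limma, adjusted p = 0.15). These 3, like prmt6, phax, fzd8, foxd4 and the models in long genes with a symbol other than tmem132e, were chosen after their values were seen.

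Within long genes the members were divided, and a model there can be an exon or lie within an intron, which the files do not tell. The model of 1917 bases in sacs, the gene of the giant chaperone-like protein sacsin, had 8.05 and 8.98 FPKM in RNA-seq and 1.01 and 2.77 in Ribo-seq, a difference of -1.18 (limma, adjusted p = 0.033). That of 1026 bases in tulp4, a tubby-family gene, had 6.23 and 6.26 and then 1.52 and 1.90, a difference of -0.81 (adjusted p = 0.022). Both were low in Ribo-seq, and both lost their calls without either RNA-seq library, tulp4 also without Ribo-seq replicate 2. The model of 1221 bases in zbtb16 had 9.38 and 12.9 FPKM in RNA-seq and 5.83 and 13.9 in Ribo-seq, with overlapping assays. Its difference of 0.47 did not pass (adjusted p = 0.29) and was -0.25 with unscaled FPKM. The longest member, 7026 bases in eppk1, the epiplakin gene, had 1.56 and 1.21 and then 0.833 and 1.14 FPKM; its difference of 0.16 did not pass either (adjusted p = 0.39), and it was -0.26 with unscaled FPKM.

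The most negative differences belonged to models in long genes or outside genes. Where footprints are near 0 the difference mostly follows the RNA level, so it does not rank deficits by ratio. The models below met the naming limit of a mean of 2 FPKM, and members below that limit had differences down to -1.82. The last model below had the highest mean Ribo-seq level, 0.330 FPKM, of the 20 with almost no footprints. The model of 1980 bases within LOC101169346 (chromosome 15, 948666 to 950645) had 5.82 and 6.95 FPKM in RNA-seq and 0.0844 and 0.117 in Ribo-seq, a difference of -2.33 ± 0.19 (SE; limma, adjusted p = 0.0045). The model of 966 bases on chromosome 19 (5742058 to 5743023), outside RefSeq genes, had 7.26 and 5.79 FPKM in RNA-seq and 0.198 and 0.0912 in Ribo-seq, a difference of -2.27 ± 0.20 (adjusted p = 0.0045). The model of 1083 bases within LOC105357636 (chromosome 3, 36695288 to 36696370) had 4.30 and 4.33 FPKM in RNA-seq, 0.0365 in Ribo-seq replicate 1 and was listed at 0 in replicate 2, a difference of -2.02. All of these kept their calls without any single library. The model of 1965 bases on chromosome 14 (4012926 to 4014890) had 4.32 and 3.60 FPKM in RNA-seq and 0.363 and 0.298 in Ribo-seq, a difference of -1.44 that was no longer called without either RNA-seq library (adjusted p = 0.064 and 0.058).

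Outside coding genes, 3 members had more footprints than the other 12. The 1602- and 1044-base models among them were chosen after their values were seen. The model of 1602 bases on chromosome 13 (18544788 to 18546389) had 10.5 and 8.78 FPKM in RNA-seq and 6.86 and 14.8 in Ribo-seq, the only one outside all RefSeq genes that was not called lower; its difference of 0.80 missed the threshold (limma, adjusted p = 0.060). Leaving out Ribo-seq replicate 1 gave 1.28 and leaving out replicate 2 gave 0.69, each with a single Ribo-seq library. With unscaled FPKM its difference was 0.074 (limma, adjusted p = 0.90). The model of 1044 bases on chromosome 5 (21313957 to 21315000), which overlaps the noncoding gene LOC111947456, had the most RNA of this group at 12.4 and 14.9 FPKM and kept 2.26 and 2.84 in Ribo-seq, a difference of -1.37 (adjusted p = 0.0085) that lost its call without either RNA-seq library. The model of 1080 bases on chromosome 2 (3885599 to 3886678), at the pseudogene LOC101174981, had 0.809 and 1.36 FPKM in RNA-seq and 1.32 and 0.979 in Ribo-seq. Its assays overlapped as deposited but not after scaling.

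One length, picked out after the values were seen, recurred among the models with almost no footprints. 4 members, on chromosomes 1, 6, 19 and 21, had exactly 1974 bases, and the table holds 16 single-exon models of that length on 12 chromosomes, the most of any length from 900 bases up. The next most frequent length, 1659 bases, had 9 models, none of which reached the RNA limit. The 4 members had 4.07, 2.34, 3.78 and 3.21 FPKM in RNA-seq replicate 1 and 5.21, 2.59, 4.05 and 4.24 in replicate 2. In Ribo-seq they had 0.106, 0.0908, 0.0946 and 0.0841 in replicate 1 and 0.0919, 0.0303, 0.0547 and 0.0678 in replicate 2. The other 12 models, which were not isolated, had 2.39 to 4.58 and 2.72 to 5.34 FPKM in RNA-seq and 0.0550 to 0.340 and 0.0284 to 0.109 in Ribo-seq. Mean RNA levels of the 16 differed by no more than 1.96-fold, and every one was called lower in Ribo-seq (limma; differences from -1.96 to -1.32). Mean Ribo-seq levels ran from 0.0435 to 0.224 FPKM, and chromosomes 1, 3, 7 and 16 each held 2 of the models. Whether these loci share a sequence, and hence reads, was not tested. If they do, their FPKM are not independent of each other.

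**Figure D5:**
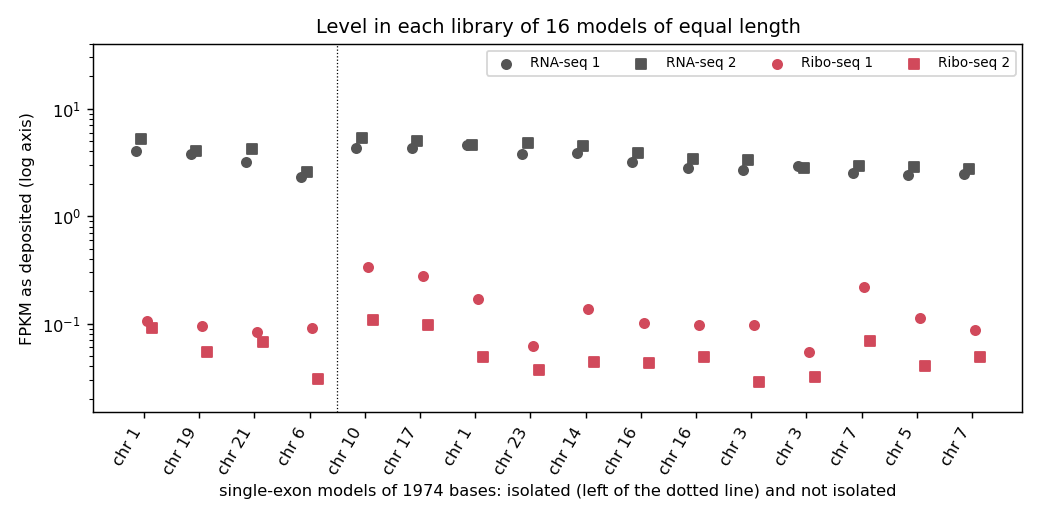
FPKM as deposited in each library (log y axis) of the 16 single-exon models of 1974 bases (x axis, by chromosome), with the 4 isolated members left of the dotted line. RNA-seq values lie between 2.34 and 5.34 and Ribo-seq values between 0.0284 and 0.340 in all 16.

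The limits of the rule separated models of similar RNA levels, while their Ribo-seq levels could differ. The shortest member, 900 bases on chromosome 2 within aamp, had a mean RNA level of 2.16 FPKM. The longest isolated model below the limit, 894 bases on chromosome 16, had 2.37. In Ribo-seq the 900-base model had 0.415 and 1.82 FPKM, and the 894-base model 0.279 and 0. The lowest member by RNA had 1.09 FPKM and the highest model below the limit 0.996. In Ribo-seq that member had 1.32 and 0.979 FPKM, and the model below the limit 1.06 and 3.05. The least isolated member lay 1026 bases from its neighbour, with a mean of 2.37 FPKM in RNA-seq and 0.667 and 3.83 in Ribo-seq. The nearest one outside the limit lay 987 bases away, with 2.97 FPKM in RNA-seq and 3.52 and 3.33 in Ribo-seq.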

How the data were processed

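Levels of 93896 models are the deposited FPKM, one column per library, per the file headers. TopHat2 2.1.0 and Cufflinks 2.2.1 appear in the submitters' processing notes with no role stated. The sources used here do not give the build, the annotation, the use of strand or whether footprints were counted over coding regions. Low values were not whole multiples of a step, so the depth is unknown. Coordinates are the models' own, counted from 1.

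Libraries were divided by the median ratio to each model's geometric mean (RNA-seq 1.40 and 1.32, Ribo-seq 0.651 and 0.925). The log2 of scaled FPKM plus 1 was fitted in R 4.3.3 by limma 3.58.1, with assay as the only term and a trended prior variance, over the 58645 models that averaged 1 FPKM or more in RNA-seq, with Benjamini-Hochberg adjustment. That filter, in place of one on the mean of all libraries, keeps every member in the test. The fit was tested on simulated data modelled on models above 0 in all 4 libraries, with few changed models, as many raised as lowered. The real calls were many and mostly lower, so that test does not give their error rate. Python 3.11.15, numpy 2.4.6, pandas 2.3.3 and matplotlib 3.10.9 were also used.

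RefSeq symbols (ASM223467v1) were given at a reciprocal overlap of 50% or more; a model "within" a gene overlaps the shortest coding gene at its position. Names rest on position without strand. The build was inferred from both ends of all 6724 single-exon models, most of which matched no gene end. Of these ends, 76 lay within 10 bases of a coding gene's end, against 10 and 6 after moving them by 20000 bases up or down. Named were, per length class, the 5 highest in each assay and the 5 largest called differences per direction with a mean FPKM of at least 2 and no overlap between assays, genes of the lists, and models at the limits of the rule; others are said to be chosen after their values were seen. A model that this rule names is not reported here. Alternatives were other scalings, pseudocounts, filters and limits, the replicate number as a block, and leaving out each library. Members and lists were chosen with earlier results of these data known.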

Additional observations from a re-analysis of the deposited data

How the results depend on the processing

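Depth is unknown, so a low FPKM has no counting error, and with 2 libraries per assay the calls lean on the spread of each pair. Of 43 single models recomputed, all 43 kept direction and side of the threshold with a pseudocount of 0.1 on the scaled values, with no filter and with no trend, and 42 under the replicate block. The replicate numbers mark no stated pairing (correlation of replicate deviations 0.063); with the number as a block, 11006 models of the whole fit passed as higher and 22451 as lower, and 25 and 23 of the members. With unscaled FPKM 8 of the 43 lost their call, and without RNA-seq replicate 1 or 2 it was 16 and 18. The fits that left out a library also had fewer libraries, and the cause of the losses was not tested.

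With unscaled FPKM, 8 multiple-of-3 models and 0 others were called higher, the class medians were -0.12 and -1.41, 2425 of all tested models were higher, and by position the counts were 8 higher and 2 lower in short genes and 0 higher in long ones. Differences then turned to -0.26 for eppk1 (-0.047 with upper quartile scaling), -0.25 for zbtb16, -0.20 for tmem132e, -0.021 for mfsd6 and -0.049 for tmem121. With upper quartile scaling the multiple-of-3 median was 0.15 and 1 model in short genes was lower. With a pseudocount of 0.1 the class medians were 0.58 and -1.71, 2.28 apart.

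Leaving out each library in turn gave 6 to 30 higher and 13 to 20 lower multiple-of-3 models, 0 to 2 and 0 to 3 others, class medians of 0.38 to 0.60 and -1.21 to -0.84 (1.24 to 1.80 apart), and 2229 to 15655 higher and 15046 to 21463 lower among all tested models. In short genes 6 to 24 were higher, in long genes 0 to 8 were higher and 5 to 10 lower, and outside genes 0 to 1 were higher and 8 to 13 lower. The uncalled differences of scai (-0.42 to 0.54, above 0 without RNA-seq replicate 1 or Ribo-seq replicate 2), fam196a (-0.25 to 0.019) and aamp (-0.57 to 0.36, both above 0 without Ribo-seq replicate 1) changed sign.

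Other limits change which models are members. At a distance over 5000 bases, 2 multiple-of-3 models were higher and 3 lower, 1 other was lower, the median of the others was -0.086 (0.52 below the multiple-of-3 class) and 1 model was listed at 0 in a Ribo-seq library. At a length of at least 1500, the counts were 10 higher and 11 lower, and 1 other lower. The medians were 0.36 and 0.49 (difference -0.13), and 0 were listed at 0. The 3490-base model of the other class, called higher, met both of these limits. At an RNA level of at least 5 FPKM, 16 were higher and 5 lower, medians 1.16 and -0.50, and 0 listed at 0. With remainder 1 alone as the other class its median was -0.27 (0.72 apart); with remainder 2 alone, a single model, it was -2.03 (2.49 apart), with 0 higher and 1 lower. A coding gene limit of 5000 bases, chosen after seeing the data, put 12 higher models in long genes and one of 20000 put 3 there. Any overlap with a RefSeq gene held for 57 multiple-of-3 and 3 other models, against 11 and 0 with the reciprocal overlap.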

Other observations

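The Ribo-seq replicates ranked against each other differently in members with few and with more footprints. A mean Ribo-seq level at or below 0.330 FPKM was found in 20 models. Of these, 13 were higher in replicate 1 than in replicate 2, against 7 of the 53 others. All 16 single-exon models of 1974 bases were higher in replicate 1, among them 4 of these 13. The ranking was not particular to the members: replicate 2 was the higher in 9080 of 11326 tested models in short coding genes. Outside coding genes it was the higher in 3261 of 10692, and over all tested models in 34397 of 58645. Models listed at 0 in both Ribo-seq libraries were higher in neither: 427 in short coding genes, 2707 outside coding genes and 8412 over all tested. Another length recurred outside the members: 7 single-exon models of 1674 bases lie on 1 chromosome, with mean RNA-seq levels of 0.381 to 0.473 FPKM and mean Ribo-seq levels of 0.00644 to 0.0166, below the RNA limit.

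The other lists, of families that hold intronless genes in vertebrates, matched none of the 73 by a symbol given at reciprocal overlap. This does not show that the families are absent from the 73. Members lie within the BTB genes zbtb1 and zbtb16, but their overlap was too small for a symbol. The receptor gene fzd8, also a member, was on none of these lists. By limma, 3 of 4 tested bHLH factors were called higher in Ribo-seq and 0 lower, 5 of 7 immediate early and bZIP factors (0 lower), 7 of 19 heptahelical receptors (3 lower), 3 of 5 potassium channels (1 lower), 9 of 22 leucine-rich repeat and adhesion proteins (4 lower), 12 of 24 chaperones (0 lower), 4 of 18 signalling inhibitors and adaptors (5 lower), 6 of 18 sugar and sulfate transferases (0 lower) and 18 of 51 BTB and kelch proteins (5 lower). Over all tested models with a symbol, 2916 of 5719 were higher and 437 lower, and nothing particular to a list is read from these counts. With unscaled FPKM the counts of higher genes were 0, 0, 0, 1, 0, 3, 0, 1 and 2 in that order, those of lower genes 0, 0, 4, 1, 4, 1, 7, 2 and 9, and those over all models with a symbol 493 and 762.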
